A study of Mus musculus with 6 samples.

Results

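The genes described here are 32 genes of smooth muscle cells and pericytes, the contractile cells that wrap arteries and capillaries. They were taken as a list of symbols, 23 of the contractile machinery and 9 that mark pericytes, chosen with earlier results of these data known. Each was read from its brightest probe set annotated to that symbol alone. All 32 were measured, among 18193 genes in all. Expression was compared between 3 arrays of carotid body and 3 arrays of adrenal medulla from untreated adult mice of the strain labelled C57/BL6. The carotid body is a small oxygen-sensing organ on the carotid artery, and the adrenal medulla, the core of the adrenal gland, secretes adrenaline and noradrenaline. Each carotid body sample pooled 18 organs and each adrenal medulla sample pooled 10, in each case from 10 animals. By the series' own statement, equal sample numbers mark one cohort of animals (cohorts 1, 2 and 3). The samples are dissected tissue, so cells of vessel wall and other tissue can be in each pool.

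Smooth muscle cells contract when calcium activates myosin light chain kinase, which phosphorylates the light chain of smooth muscle myosin so that it pulls on actin filaments. Myocardin, bound to serum response factor, switches on many of these contractile genes through short DNA elements called CArG boxes. Pericytes are recruited to capillaries by platelet-derived growth factor through the receptor Pdgfrb, and mural cells of arteries depend on Notch3. The carotid body is among the most densely perfused tissues of the body, and a network of capillaries runs between its clusters of sensory cells.

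The promoters of 4 members are shown because they differ in CArG boxes, the element to which the known regulator of this programme binds. A CArG box is a CC and a GG with 6 letters between them, each A or T, and it reads the same as a pattern on both strands. A relaxed form allowed 1 of those 6 letters to be any base. Of 24 members with an entry in the RefSeq promoter table (build GRCm38.p6), 1 had a strict box in the 250 bases before the gene start and 3 had a strict or relaxed one. Over all 27025 genes of that table the shares were 1.62% and 9.78%, against 4.17% and 12.5% of the members with an entry. Actg2, Myh11, Tagln, Itga7, Myocd, Pdgfrb, Higd1b and Foxs1 had no entry, so the member shares leave them out. The printed windows are the 250 bases before the start of Acta2 (chr19:34255374-34255623, minus strand), Myl9 (chr2:156775214-156775463, plus strand), Synm (chr7:67759743-67759992, minus strand) and Pln (chr10:53337436-53337685, plus strand), each in the direction of its gene with strict and relaxed boxes in capitals.
Acta2: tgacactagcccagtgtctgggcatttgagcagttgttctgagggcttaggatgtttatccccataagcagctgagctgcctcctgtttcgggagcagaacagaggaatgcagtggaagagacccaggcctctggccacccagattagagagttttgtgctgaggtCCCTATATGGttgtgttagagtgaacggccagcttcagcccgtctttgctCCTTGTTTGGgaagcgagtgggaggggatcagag
Myl9: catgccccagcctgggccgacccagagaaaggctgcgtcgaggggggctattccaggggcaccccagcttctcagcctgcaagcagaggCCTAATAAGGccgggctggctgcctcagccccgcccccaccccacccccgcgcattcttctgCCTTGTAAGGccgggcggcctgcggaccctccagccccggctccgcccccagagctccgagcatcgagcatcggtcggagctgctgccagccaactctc
Synm: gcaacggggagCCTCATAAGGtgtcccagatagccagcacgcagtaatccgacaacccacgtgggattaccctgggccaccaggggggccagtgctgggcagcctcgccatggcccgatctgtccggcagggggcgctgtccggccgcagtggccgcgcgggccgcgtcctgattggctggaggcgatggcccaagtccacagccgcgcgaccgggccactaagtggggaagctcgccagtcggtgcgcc
Pln: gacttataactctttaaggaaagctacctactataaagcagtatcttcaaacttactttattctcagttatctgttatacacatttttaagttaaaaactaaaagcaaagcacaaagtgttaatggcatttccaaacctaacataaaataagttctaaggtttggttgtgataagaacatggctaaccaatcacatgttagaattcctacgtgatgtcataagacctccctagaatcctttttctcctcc
The smooth muscle actin promoter held 2 relaxed boxes, CCCTATATGG at 84 to 75 bases and CCTTGTTTGG at 34 to 25 bases before the start. The Myl9 promoter held the strict box CCTAATAAGG at 161 to 152 bases and the relaxed box CCTTGTAAGG at 99 to 90 bases. Synm, with a smaller difference between the tissues, had the relaxed box CCTCATAAGG far from its start, at 239 to 230 bases. Pln, the member with the largest difference, had no strict or relaxed box in its window. A match here is a description of sequence only.

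Across the 6 arrays the values had similar distributions, with medians of 5.25 to 5.32 in carotid body against 5.16 to 5.18 in adrenal medulla (log2 intensity). Correlation was 0.978 to 0.984 among carotid body arrays, 0.991 to 0.995 among adrenal medulla arrays and 0.938 to 0.951 across tissues. Carotid body array 1 stood apart by genes of the steroid-producing adrenal cortex. Its Star level was 12.06, against 3.85 and 3.81 in the other carotid body arrays and 13.92, 13.95 and 13.52 in adrenal medulla. Pnmt, a marker of catecholamine cells, also stood apart there, at 11.13 against 7.65 and 8.08 in the other carotid body arrays. Th, named after its value was seen, did not, at 11.42 on that array against 11.89 and 11.76 on the others. Without that array 23 members were still called, with a median difference of 1.66 (log2). The Gapdh control difference between the 3′ and 5′ ends, larger in shorter RNA, was 0.59 to 1.45 in carotid body against 0.13 to 0.61 in adrenal medulla. The X-linked transcript Xist, made in female cells, was at 8.84 to 10.96 in carotid body against 4.45 to 5.60 in adrenal medulla. The tissues did not overlap in Xist, so a difference in sex between the pools could not be told apart from tissue. The part of RNA quality and of this Xist gap in the differences below was not tested.

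Smooth muscle and pericyte genes were higher in carotid body. Calls required an adjusted p under 0.05 (limma, Benjamini-Hochberg over all 45037 probe sets) and at least a 2-fold difference. Of the 32 members, 23 were called higher in carotid body, and 0 lower, where 5.91% of all genes were called higher and 6.08% lower. As the list was chosen with earlier results of these data known, such counts describe it and do not test it. By adjusted p alone 27 members were higher (10.9% of all genes) and 0 lower (16.5%). The median difference, carotid body minus adrenal medulla, was 1.66 over the members and -0.04 over all genes (log2). In 28 members every carotid body array lay above every adrenal medulla array, as in 17.8% of all genes. Desmin was the one member with every carotid body array below, as in 26.1% of genes, and Actg2, Ppp1r14a and Vtn overlapped. In dissected tissue, more cells of a type and more RNA per cell cannot be told apart.

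Contractile and pericyte members were both mostly higher in carotid body. Of the contractile genes 17 of 23 were called, with a median difference of 1.76, and of the pericyte genes 6 of 9, with a median of 1.38. The difference between these medians was not tested. By cohort the medians of the contractile genes were 1.57, 1.63 and 1.93 in cohorts 1, 2 and 3, and those of the pericyte genes 1.63, 1.26 and 1.24. At 4-fold or more, 10 members were called, 8 contractile and 2 pericyte genes, where 2.01% of all genes were called higher at that size. Of these, Pln, Cnn1 and Myocd lay under the median of every adrenal medulla array. Without detection calls it is not known whether they were above background there.

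**Figure D1:**
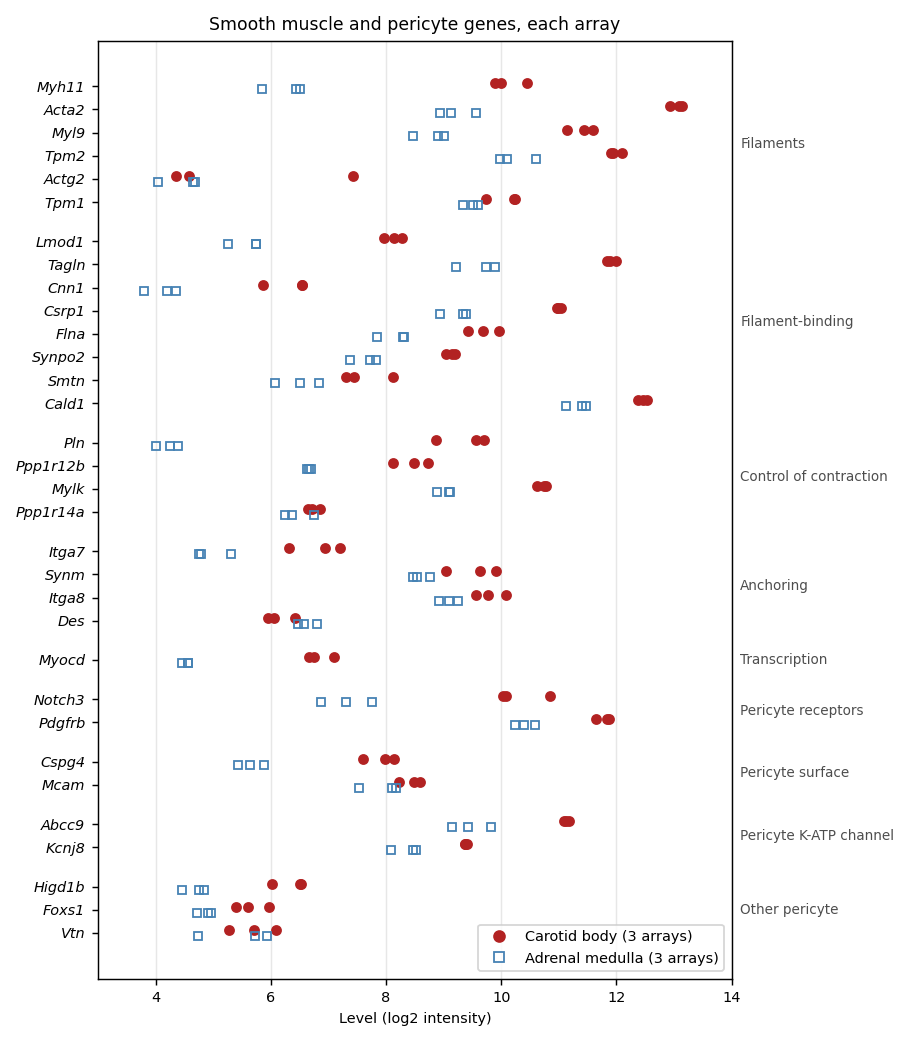
Level of each of the 32 genes (log2 intensity) on the 3 carotid body arrays (filled circles) and the 3 adrenal medulla arrays (open squares), grouped by role. Carotid body lies above adrenal medulla without overlap in 28 genes, while Actg2, Ppp1r14a and Vtn overlap and Des lies below.

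Of the filament genes, smooth muscle actin and myosin differed most on their brightest probe sets. With all probe sets averaged Myl9 led, at 2.61, against 2.38 for Myh11 and 2.01 for Acta2. Myl9 has only 1 probe set, whereas Myh11 has 2 and Acta2 3, and their dimmer probe sets gave smaller differences. Acta2, the actin of vascular smooth muscle, was at 12.93, 13.14 and 13.08 in carotid body and at 9.57, 8.94 and 9.12 in adrenal medulla (log2 intensity, arrays 1 to 3 of each tissue). All carotid body arrays lay close together and far above all adrenal medulla arrays. Acta2 differed by 3.84 ± 0.18 (SE; limma adjusted p = 2.13e-05), which is 14.4-fold. Its brightest probe set carries the suffix that the manufacturer gives to probes shared by several transcripts, and the next probe set, without it, gave 1.97. The last, dim in each tissue, gave 0.20 and was not called.

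Myh11, the heavy chain of smooth muscle myosin and the most specific gene of these cells, was at 9.88, 10.45 and 9.99 in carotid body and at 5.84, 6.50 and 6.44 in adrenal medulla. All carotid body arrays lay far above all adrenal medulla arrays. Its difference was 3.85 ± 0.22 (SE; limma adjusted p = 5.34e-05), and its dimmer probe set gave 0.92, not called. Myl9, the regulatory light chain that the kinase phosphorylates, was at 11.15, 11.60 and 11.45 in carotid body and at 9.00, 8.91 and 8.46 in adrenal medulla, a difference of 2.61 ± 0.18 (adjusted p = 0.000122).

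The tropomyosins, which lie along actin and gate myosin's access to it, were less far apart. Tpm2 averaged 11.99 ± 0.10 in carotid body against 10.23 ± 0.32 in adrenal medulla (SD, n = 3 each), a difference of 1.76 (limma adjusted p = 0.00051). Tpm1 averaged 10.06 ± 0.29 in carotid body against 9.48 ± 0.13 in adrenal medulla (SD, n = 3 each), a difference of 0.58, under 2-fold. Its adjusted p was 0.0391, and 0.0584 with cohort as a block. Of the 4 Tpm1 probe sets, 1 was called, at 1.14. Tpm1 makes isoforms for many cell types, whereas Actg2 is the actin of gut and bladder smooth muscle. Actg2 was at 4.58, 4.35 and 7.43 in carotid body and at 4.05, 4.65 and 4.69 in adrenal medulla. Only carotid body array 3 was above the others, and the difference of 1.00 ± 0.74 was not called (limma adjusted p = 0.4).

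All 8 genes for proteins that bind the filaments were called higher in carotid body, from 1.11 for Cald1 to 2.54 for Lmod1. Lmod1, leiomodin, starts actin filaments in smooth muscle. It was at 8.13, 8.28 and 7.96 in carotid body and at 5.74, 5.25 and 5.75 in adrenal medulla (SE of the difference 0.17; limma adjusted p = 9.45e-05). Tagln, transgelin, is an actin-bundling protein abundant in vascular smooth muscle. It was at 11.89, 11.99 and 11.83 in carotid body and at 9.89, 9.73 and 9.21 in adrenal medulla, a difference of 2.29 ± 0.18 (adjusted p = 0.00021).

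Cnn1, calponin, is a late marker of mature smooth muscle and slows myosin's cycle. It was at 6.54, 5.86 and 6.54 in carotid body and at 3.79, 4.34 and 4.20 in adrenal medulla, a difference of 2.20 ± 0.23 (limma adjusted p = 0.000594). Its adrenal medulla values lay under the median of each array. Csrp1, a LIM protein that binds alpha-actinin, differed by 1.79, the actin crosslinker filamin A (Flna) by 1.54 and synaptopodin 2 (Synpo2) by 1.49. Smoothelin, Smtn, differed by 1.15 (adjusted p = 0.0169), and its call ended without carotid body array 2, at 0.91, and when adrenal medulla array 3 was left out (adjusted p = 0.0598). In all, the Smtn call was lost under 4 of 18 alternatives. Caldesmon, Cald1, also made in other cell types, was bright in each tissue, at 12.45 ± 0.08 in carotid body against 11.34 ± 0.18 in adrenal medulla (SD, n = 3 each). Its 5 probe sets ranged from -0.12 to 1.41, and its next brightest, without the shared-transcript suffix, gave 0.46 (adjusted p = 0.342). The 4 Synpo2 probe sets ranged from -0.33 to 1.49, 1 of them called.

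Of the genes that set contraction, phospholamban had the largest measured difference of all 32. Pln, which restrains the calcium pump of the sarcoplasmic reticulum in heart and smooth muscle, was at 9.57, 9.70 and 8.87 in carotid body and at 4.38, 4.00 and 4.25 in adrenal medulla. In adrenal medulla it lay under the median of every array. The measured difference was 5.17 ± 0.23 (SE; limma adjusted p = 1.85e-05), and its other probe sets gave 3.80 and 3.41. Without detection calls it is not known whether Pln was above background in adrenal medulla, so no fold is given. Heart muscle is a known site of Pln. The summed intensity of 7 heart muscle markers was 7.14 to 7.29 in carotid body against 7.13 to 7.48 in adrenal medulla (log2), and the part of heart muscle in the Pln difference was not tested.

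Mylk, the myosin light chain kinase, averaged 10.71 ± 0.09 in carotid body against 9.04 ± 0.12 in adrenal medulla (SD, n = 3 each), a difference of 1.68 (limma adjusted p = 0.000124). Ppp1r12b, a targeting subunit of the phosphatase that reverses the kinase, differed by 1.79 (adjusted p = 0.000363), with 2 of 4 probe sets called. Ppp1r14a, the inhibitor of that phosphatase known as CPI-17, was at 6.86, 6.65 and 6.72 in carotid body and at 6.24, 6.74 and 6.36 in adrenal medulla. The tissues overlapped, and the difference of 0.29 ± 0.16 was not called (limma adjusted p = 0.227).

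The anchoring genes differed least of the contractile groups, with 1 of 4 called. Itga7, a laminin-binding integrin of muscle, differed by 1.88 ± 0.25 (SE; limma adjusted p = 0.00194). Itga8, an integrin of smooth muscle and other mesenchymal cells, differed by 0.72 (adjusted p = 0.0176), and synemin, Synm, an intermediate filament protein, by 0.93 (adjusted p = 0.0203), each under 2-fold. Synm passed 2-fold without carotid body array 3, at 1.18, and without adrenal medulla array 2, at 1.02. In all, it was called under 4 of 18 alternatives.

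Desmin, Des, the intermediate filament of all muscle types, was the one member with a negative difference. It was at 6.42, 6.06 and 5.95 in carotid body and at 6.79, 6.46 and 6.58 in adrenal medulla. The gap between the tissues was narrow. The difference was -0.47 ± 0.16 (limma adjusted p = 0.0716, and 0.038 with cohort as a block), under 2-fold, and its second probe set gave 0.05. Myocd, the coactivator myocardin, was at 6.75, 6.66 and 7.09 in carotid body and at 4.56, 4.46 and 4.56 in adrenal medulla. All carotid body arrays were higher, by 2.31 ± 0.14 (limma adjusted p = 6.39e-05), and its second, dim probe set gave 0.05. In adrenal medulla Myocd lay under the median of every array.

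**Figure D2:**
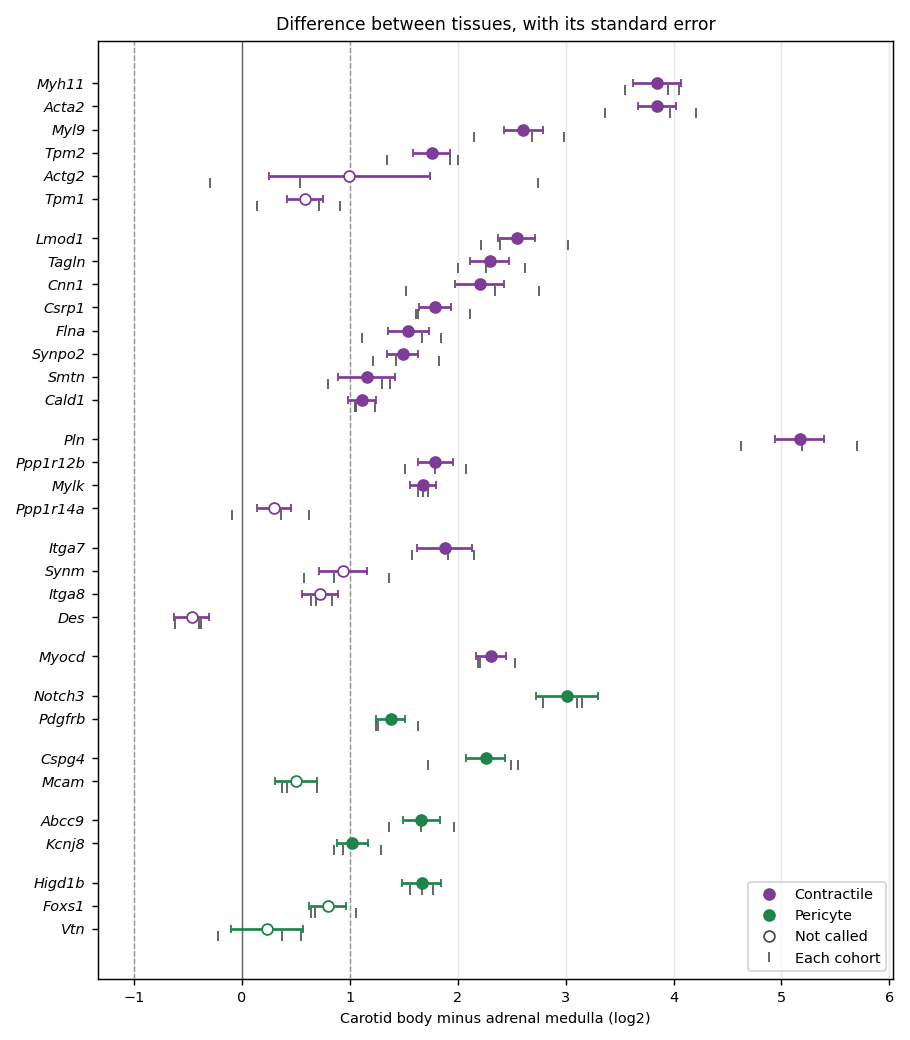
Difference of each gene, carotid body minus adrenal medulla (log2; circle, with bars of 1 SE from limma, n = 3 arrays a tissue), contractile genes in purple and pericyte genes in green, open where not called. Ticks mark the 3 cohorts and dashed lines 2-fold; Pln is farthest at 5.17 and Des is the one gene below 0.

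The pericyte receptors were both called. Pdgfrb, the receptor for platelet-derived growth factor B, was at 11.88, 11.84 and 11.64 in carotid body and at 10.24, 10.58 and 10.40 in adrenal medulla. It was bright in each tissue and differed by 1.38 ± 0.13 (SE; limma adjusted p = 0.000467), with both of its probe sets called. Fibroblasts also make Pdgfrb. Notch3, the Notch receptor of mural cells, was at 10.03, 10.86 and 10.08 in carotid body and at 6.88, 7.75 and 7.30 in adrenal medulla. Its difference was 3.01 ± 0.29 (adjusted p = 0.000418) on its brightest probe set, which carries the shared-transcript suffix, and 2.09 on the other.

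Cspg4, the surface proteoglycan NG2, was at 8.13, 7.99 and 7.60 in carotid body and at 5.64, 5.43 and 5.88 in adrenal medulla. It differed by 2.26 ± 0.18 (SE; limma adjusted p = 0.000207), and its other probe set by 3.52. The adhesion molecule Mcam, made by endothelium too, was at 8.22, 8.59 and 8.48 in carotid body and at 7.53, 8.17 and 8.10 in adrenal medulla. The tissues did not overlap but lay close, and the difference of 0.50 ± 0.19 was not called (limma adjusted p = 0.111, and 0.0361 with cohort as a block).

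Kcnj8 and Abcc9 encode the pore Kir6.1 and the sulfonylurea receptor SUR2, which together form the potassium channel of mural cells that closes when ATP is plentiful. Abcc9 was at 11.12, 11.18 and 11.09 in carotid body and at 9.15, 9.82 and 9.43 in adrenal medulla, a difference of 1.66 ± 0.17 (SE; limma adjusted p = 0.000625), and all 3 of its probe sets were called. Kcnj8 was at 9.37, 9.37 and 9.41 in carotid body and at 8.08, 8.53 and 8.47 in adrenal medulla. The carotid body arrays were nearly equal, and the difference of 1.02 ± 0.14 (limma adjusted p = 0.00235) only just passed 2-fold. Without adrenal medulla array 1 it was 0.88, and with each array centred on its median 0.91, in both cases no longer called. In all, the Kcnj8 call was lost under 5 of 18 alternatives.

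Higd1b, a small membrane protein gene used as a pericyte marker, was at 6.52, 6.51 and 6.01 in carotid body and at 4.75, 4.84 and 4.45 in adrenal medulla, a difference of 1.66 ± 0.18 (SE; limma adjusted p = 0.000703). Its adrenal medulla values lay under the median of each array. The forkhead factor Foxs1 was at 5.60, 5.97 and 5.39 in carotid body and at 4.96, 4.91 and 4.71 in adrenal medulla. That difference, 0.79 (adjusted p = 0.0129), was under 2-fold between dim values. Vtn, vitronectin, a plasma and matrix protein used as a pericyte marker in mouse brain, was at 5.28, 5.72 and 6.09 in carotid body and at 4.74, 5.94 and 5.72 in adrenal medulla. Its arrays overlapped, and the difference of 0.23 was not called (limma adjusted p = 0.688).

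How far a member differed depended on the probe set read. The 32 genes had 66 probe sets, of which 37 were called higher in carotid body, and 0 lower, where 5.95% of all probe sets were called higher. The 34 that were not the brightest of their gene had a median difference of 0.74, against 1.66 for the brightest. Of the 20 member probe sets with a mean under 5.28, the median of all probe sets, 3 were called, and of the 46 brighter ones 34 were. The same shares were not taken over all dim and all brighter probe sets, so this contrast cannot be read as particular to the members. With every probe set of a gene averaged in place of the brightest, the median member difference was 1.20.

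**Figure D3:**
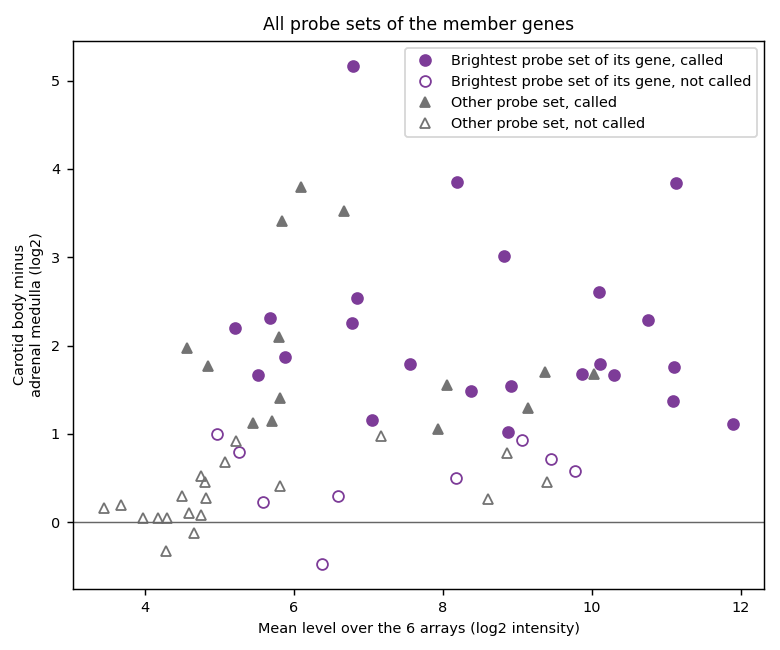
All 66 probe sets of the 32 genes: mean level over the 6 arrays (log2 intensity) against the difference, carotid body minus adrenal medulla (log2); circles are the brightest probe set of a gene, triangles the others, filled where called. Of the 20 probe sets with a mean under 5.28, 3 were called, and of the 46 brighter ones 34 were. Shares over all dim and all brighter probe sets were not taken.

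The order of the arrays within a tissue varied from gene to gene. Carotid body array 2 was the highest of its tissue for 15 of 32 members, array 1 for 10 and array 3 for 7. In adrenal medulla the highest array was array 2 for 14 members, array 1 for 12 and array 3 for 6. For the pericyte genes adrenal medulla array 1 was the lowest in 6 of 9 and array 2 the highest in 7 of 9. The median SD of a member over arrays was 0.25 in carotid body against 0.26 in adrenal medulla. Over all genes these medians were 0.19 in carotid body against 0.14 in adrenal medulla. In 28 members the difference was above 0 in all 3 cohorts, and cohort 2 was the cohort with the fewest, 28, against 31 in each of the others. Neither the array order nor these sign counts were taken over all genes, so neither can be read as particular to the members.

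Other genes of the same systems, from lists that leave out the 32, were called higher more often than lower. For these lists and the marker lists below, the shares over all genes were 5.91% called higher and 6.08% lower. The lists were chosen with earlier results of these data known, so such counts describe them and do not test them. Of 41 measured related contractile genes, 14 were called higher and 1 lower, and the median was 0.51. The largest were Aoc3, an amine oxidase on the surface of smooth muscle and fat cells, at 4.42 ± 0.31 (SE; limma adjusted p = 0.000121), and Cav1, the coat protein of caveolae, at 3.94. Mustn1, a small gene of muscle and skeleton, differed by 3.93 and Pdlim3, a protein of the actin anchor, by 2.23. The 1 called lower was Cacna1c, a calcium channel pore, at -1.49 (adjusted p = 0.00467), which was named after its value was seen. Without cohort 2 no related contractile gene was called lower.

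Of 27 related pericyte genes, 17 were called higher and 3 lower, with a median of 1.47. Without cohort 2, 10 were called higher. Aspn, a matrix protein also made by fibroblasts, differed by 3.78 ± 0.21 (SE; limma adjusted p = 4.56e-05). The forkhead factor Foxd1 differed by 3.35, the T-box factor of mural cells Tbx18 by 2.53 and Ebf1, a factor also of B and fat cells, by 2.45. The 3 lower, named after their values were seen, were the angiotensin receptor Agtr1a at -2.04, the ectonucleotidase Nt5e at -1.92 and the collectin Colec11 at -1.31, whose adjusted p was 0.0503 with cohort as a block. Agtr1a is also made by adrenal cortex cells, and the part of cortex RNA in its difference was not tested.

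Of 14 transcription factors that act with myocardin or Notch in muscle cells, 5 were called higher and 1 lower. Klf4, which opposes the contractile programme, averaged 10.68 ± 0.05 in carotid body against 8.56 ± 0.07 in adrenal medulla (SD, n = 3 each; difference 2.12; limma adjusted p = 3.21e-05). The LIM protein Fhl1 differed by 1.73, and the Notch target genes Hey2 and Hey1 by 1.65 and 1.41. Gata6 was called lower at -1.39 and was named after its value was seen. Srf, the partner of myocardin, differed by 0.34 ± 0.25 (adjusted p = 0.397), and it too was named after its value was seen.

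Of 14 ligands and receptors that recruit mural cells, 7 were called higher and 0 lower. Jag1, a Notch ligand of vessel walls, averaged 11.05 ± 0.04 in carotid body against 7.73 ± 0.09 in adrenal medulla (SD, n = 3 each; difference 3.32; limma adjusted p = 7.7e-06). Endothelin 1 (Edn1), a constrictor peptide of endothelium, differed by 2.36, Tgfb2 by 1.88 and the Tie2 ligand Angpt1 by 1.58. Pdgfb, the ligand of Pdgfrb, differed by 0.63 (adjusted p = 0.0829) and was named after its value was seen.

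Markers of other cell types also moved between the tissues. All 12 fibroblast markers were called higher in carotid body, with a median of 2.96, and their summed intensity was 15.71 to 15.94 in carotid body against 12.96 to 13.27 in adrenal medulla (log2 of the sum). Mfap5, a microfibril protein, led them at 5.47, followed by Pi16 at 3.89, collagen Col1a1 at 3.30 and lumican (Lum) at 3.30. All 6 measured glia markers were higher, led by myelin basic protein (Mbp) at 3.39, S100b at 2.50, Cdh19 at 2.31 and Sox10 at 2.02, with a median of 2.17 and sums of 13.09 to 13.35 in carotid body against 10.52 to 10.91 in adrenal medulla. Of the 12 endothelial markers 3 were called higher and 0 lower, Cldn5 at 3.97, Vwf at 2.41 and Cdh5 at 1.28, with a median of 0.52. Their sums were 12.67 to 12.93 in carotid body against 11.85 to 12.13 in adrenal medulla. The sums of the 32 smooth muscle and pericyte genes were 15.37 to 15.53 in carotid body against 13.53 to 13.69 in adrenal medulla. The part of these other cell types in the member differences was not tested.

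Skeletal muscle, which lies beside the carotid body in the neck, shares desmin, tropomyosins and Itga7 with smooth muscle. Of its 12 markers 0 were called higher in carotid body by limma, and 1 lower, Myl1 at -1.83. At an adjusted p alone Tnnt3 was higher, at 0.76, and Actn3 lower, at -0.58. Of the 12, 8 lay under the median of every array, and Acta1, the skeletal actin, was at 5.41 to 5.55 in carotid body against 5.54 to 5.59 in adrenal medulla. The sums were 8.37 to 8.53 in carotid body against 8.87 to 9.06 in adrenal medulla. Of the 7 heart muscle markers 5 lay under every array's median; 0 were called higher and 1 lower, Tnnt2 at -1.25. Actc1 was higher in carotid body without overlap, at 0.62 (limma adjusted p = 0.0305), under 2-fold.

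Adrenal cortex markers went the other way. Of 10, 9 were called lower in carotid body, and 0 higher, with a median of -4.95. The largest called differences were Star at -7.23, Cyp11b1 at -6.88, Cyp11a1 at -6.81 and Mc2r at -5.48, and Hsd3b1, at -6.75, was not called (limma adjusted p = 0.0553). All of these values take in carotid body array 1, where Hsd3b1 was at 13.35 against 5.03 and 4.33 on the others. By cohort the medians of the cortex markers were -1.99, -6.54 and -6.52 in cohorts 1, 2 and 3. The sums were 10.58 to 14.91 in carotid body against 16.16 to 16.61 in adrenal medulla. Of 9 measured markers of catecholamine cells, 7 were called lower, with sums of 15.03 to 15.19 in carotid body against 16.30 to 16.68 in adrenal medulla. The largest of these were Gata3 at -4.73, Pnmt at -4.62, Dbh at -3.41 and Slc18a1 at -2.42. The Pnmt value takes in carotid body array 1, at 11.13 against 7.65 and 8.08 in the other carotid body arrays. The Dbh value takes in carotid body array 3, at 7.86 against 10.20 and 10.23 in the other carotid body arrays. Ddc, named after its value was seen, went the other way, at 0.81 (limma adjusted p = 0.0207), under 2-fold. The part of cortex RNA in the member differences was not tested.

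**Figure D4:**
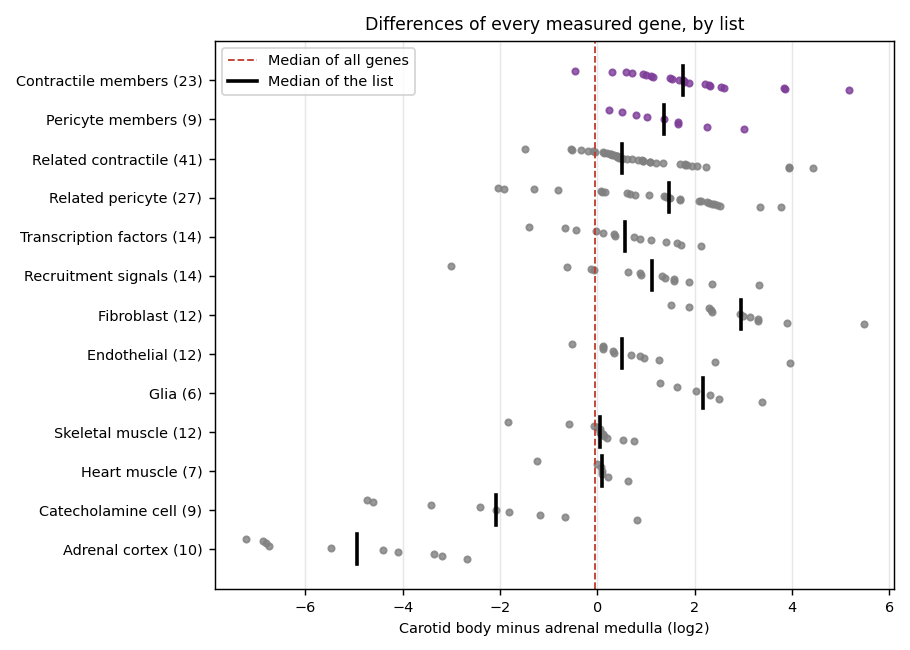
Difference of every measured gene, carotid body minus adrenal medulla (log2), by list, with the number of genes in brackets; black bars are list medians and the dashed line is the median of all genes, -0.04. The contractile and pericyte members have medians of 1.76 and 1.38, between those of fibroblast markers at 2.96 and endothelial markers at 0.52, while skeletal muscle markers have a median of 0.05.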

How the data were processed

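Gene expression was measured on 6 Affymetrix arrays, 3 for each tissue. The deposited table holds log2 values, 1 per probe set and array, which per the submitters' processing notes the authors made in Affymetrix Expression Console. Not given in the sources used here are the software version and the normalization. The log2 scale was read from the values, which run from 2.70 to 14.97. No detection calls were used, so it is not known which low values were above background. Differences near the floor can be compressed, and the number of arrays limits the precision.

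Of 45101 probe sets 64 controls were left out. Symbols were taken from a platform annotation dated 2016, in which 34945 probe sets had 1 symbol, 932 several and 9160 none. IDs of 34741 were found in RefSeq (GRCm38.p6), which changed 0 symbols. The fit used limma 3.58.1 under R 4.3.3, with lmFit and eBayes, no block and two-sided tests. The test was checked on simulated data. The members and lists were chosen with earlier results of these data known. All members are named; of each other list, up to 4 genes with the largest differences at an adjusted p under 0.05. Acta1 was named after its value was seen. Some genes of the other lists are not analysed here. Cohort numbers pair the tissues by the series' own statement. Deviations from tissue means correlated at 0.08 to 0.22 within cohorts and at -0.21 to 0.10 between them. Xist differed between the tissues in every cohort, and whether each pair came from the same animals was not tested. Alternatives were the cohort block, 2 scalings, a filter on dim probe sets, other variance models, array weights, other choices of probe set, treat against 1.5-fold, and leaving out arrays or cohorts.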

Additional observations from a re-analysis of the deposited data

How the results depend on the processing

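Of the 23 members called higher, 18 were called under every alternative that gave them a value, and of the 9 not called, 7 stayed so. The exceptions were Cald1, Smtn, Kcnj8, Ppp1r12b and Synpo2 among the called genes, and Synm and Vtn among the others. Vtn, not called, had its sign reversed without adrenal medulla array 1, at -0.13, and its highest value was 0.47, without adrenal medulla array 2. Leaving out arrays or cohorts gave 22 to 24 members called higher and 0 lower, with medians of 1.59 to 1.70. Contractile genes called higher were then 16 to 18 (medians 1.64 to 1.88), and pericyte genes 5 to 6 (1.25 to 1.46). Related contractile genes were 11 to 16 higher and 0 to 1 lower (medians 0.50 to 0.66), and related pericyte genes 10 to 17 higher and 2 to 3 lower (1.31 to 1.65), the lowest count without cohort 2. Over all probe sets 1626 to 3025 were higher and 952 to 2499 lower.

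Centring each array on its median moved the median difference of all genes by -0.11 and that of the members to 1.55; the share of called probe sets that were higher was 46% there, 58.6% with quantile normalization and 56.5% as reported. Over genes these shares were 40.2%, 54.2% and 49.3%, so the direction of most calls turned with quantile normalization. With every probe set of a gene averaged, the medians were 1.20 for all members and 1.18 for contractile genes, with 9 related contractile genes called higher. Cald1 (0.73), Synpo2 (0.42) and Ppp1r12b (0.92) fell under 2-fold there. With treat, 1659 probe sets were higher and 1013 lower, and no related contractile gene was lower. A further choice, made after seeing the data, left out probe sets with a shared-transcript suffix and called 22 members, with a median of 1.61, Acta2 at 1.97 and Notch3 at 2.09. With cohort as a replicate block 23 members were called higher, as without it (median 1.66), and no member's call changed; of the related pericyte genes called lower, Colec11 was lost, leaving 2. Dropping dim probe sets left Actg2, Cnn1 and Foxs1 with no value.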

Other observations

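In a few genes of the lists 1 array lay apart from the others of its tissue. Shh, a secreted signal, was at 5.70, 4.80 and 8.31 in carotid body and at 11.12, 8.45 and 8.29 in adrenal medulla (log2 intensity, arrays 1 to 3), and was not called (difference -3.02; limma adjusted p = 0.0714). Foxd1 was at 7.37, 7.35 and 6.44 in carotid body and at 4.80, 3.09 and 3.20 in adrenal medulla. Ebf1 was at 10.48, 10.78 and 9.34 in carotid body and at 8.55, 7.40 and 7.29 in adrenal medulla.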
